A study of Mus musculus with 4 samples.

Results

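Imprinted genes of the mouse hypothalamus were measured in single nuclei, and the 10 genes described here are Meg3, Rian, Mirg, Dlk1, Snrpn, Ndn, Magel2, Ube3a, Peg3 and Gnas. They were taken by name from the 32285 genes counted, with no measured value used in the rule but with earlier results of these data known. All 10 were detected in every library. Hypothalamus came from 12 adult male mice on a C57/BL6NCr background, either wild type (WT) or heterozygous for a point mutation of thyroid hormone receptor α1 that weakens hormone binding (TRα1+m). Each library pooled nuclei from 3 mice. A WT and a TRα1+m library were made in each of 2 experimental repeats, so n = 2 libraries per genotype and n = 4 in all. The mutation is not restricted to a cell type, no treatment is named for these mice, and the pools hide differences between animals.

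Imprinted genes are expressed from only 1 of the parental chromosomes, which carry different DNA methylation at control regions set in the germ line. Many lie in clusters with long non-coding RNAs, and the brain expresses a large share of them. In the hypothalamus they are known for their part in feeding, growth, temperature control and parental behaviour, and loss of the paternal copies of Snrpn, Ndn and Magel2 belongs to Prader-Willi syndrome in humans. The counts used here are summed over both chromosomes and over all isoforms of a gene, so they hold no information on which parental copy was read.

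The matrices held 68190 barcodes, of which 56386 were kept by the authors as nuclei, and 309 barcode sequences of kept nuclei occurred in 2 or more libraries. Totals per library were 47260127 to 59112785 unique molecular identifiers (UMIs), and the median UMIs per nucleus were 3038 and 4018 in the WT repeats and 2904 and 3382 in the TRα1+m repeats. UMIs were summed per library over the nuclei of a cell type and expressed as counts per 1000000 UMIs of that cell type (CPM). The 5 main types compared were Neurons_1 with 35756 nuclei, astrocytes with 9535, oligodendrocytes with 6135, oligodendrocyte precursors (OPCs) with 2110, and microglia and macrophages with 1779. The TRα1+m library of repeat 2 stood apart: it gave 852 of the 864 nuclei of the small cluster Neurons_2, which was left out, and 36 of the 39 astrocyte nuclei labelled VLMC, which were kept in the astrocyte sums but not described as a type of their own. Where 4 values follow each other, they are those of WT repeat 1, WT repeat 2, TRα1+m repeat 1 and TRα1+m repeat 2. Cell types were clustered from these same counts, so differences between them are given as descriptions without a test.

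The cluster on chromosome 12 holds Dlk1, read from the paternal chromosome, and the non-coding Meg3, Rian and Mirg, read from the maternal one. On GRCm38, with GENCODE M21 gene models, Dlk1 lies at chr12:109452823-109463336, Meg3 at chr12:109541001-109571726, Rian at chr12:109603940-109661716 and Mirg at chr12:109729764-109749460, all on the + strand. Meg3 starts 88.2 kb after Dlk1, Rian 62.9 kb after Meg3, and Mirg 126 kb after Rian. The spans of the 3 non-coding genes held 35 mature miRNAs of RefSeq, 3 in Meg3, 6 in Rian and 26 in Mirg. These had 34 different seeds (bases 2 to 8), and 1 seed was shared by 2 miRNAs, both within Mirg. Below are 1 miRNA of each host RNA and the pair with the shared seed, shown because the host RNAs carry them; the seed is in capitals.
mmu-miR-770-5p (Meg3, chr12:109563710-109563731, + strand): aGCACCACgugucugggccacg
mmu-miR-370-3p (Rian, chr12:109618305-109618326, + strand): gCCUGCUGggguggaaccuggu
mmu-miR-134-5p (Mirg, chr12:109734145-109734166, + strand): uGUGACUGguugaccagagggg
mmu-miR-453 (Mirg, chr12:109735669-109735692, + strand): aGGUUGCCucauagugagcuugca
mmu-miR-496a-5p (Mirg, chr12:109739132-109739152, + strand): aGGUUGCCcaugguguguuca
The libraries counted polyadenylated host RNA and its introns, not the mature miRNAs.

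Meg3, a nuclear long non-coding RNA, was at 7335, 6944, 7256 and 8911 CPM in Neurons_1. It was at 744, 879, 741 and 682 CPM in astrocytes and at 611, 587, 668 and 473 CPM in oligodendrocytes. OPCs gave 708, 732, 826 and 730.4 CPM, and microglia and macrophages 846, 871, 859.8 and 823 CPM. Each neuronal library was thus far above each glial one. The ratio of Neurons_1 to astrocytes was 10.2 ± 2.14 (SD, n = 4 libraries), and 97.4% of all Meg3 UMIs were in Neurons_1, which held 80.2% of the UMIs of all genes.

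Rian, a non-coding host of small nucleolar RNAs and miRNAs, was at 840.0, 981, 834 and 916 CPM in Neurons_1 and at 156, 215, 162 and 121 CPM in astrocytes. Oligodendrocytes gave 140.0, 179.8, 165 and 87.9 CPM, OPCs 129, 148, 149 and 129 CPM, and microglia and macrophages 183, 245, 201 and 146 CPM. Its neuronal excess over astrocytes, 5.66 ± 1.31-fold, was smaller than that of Meg3, and 95.6% of its UMIs were in Neurons_1. Mirg, host of the largest group of these miRNAs, was at 197, 168, 207 and 176.5 CPM in Neurons_1. It was at 17.9, 19.7, 18.9 and 9.15 CPM in astrocytes, 11.6, 9.58, 19.2 and 7.52 in oligodendrocytes, 15.5, 9.08, 19.2 and 13.7 in OPCs, and 12.5, 26.8, 10.4 and 12.97 in microglia and macrophages. The ratio to astrocytes was 12.4 ± 4.70, and 23.3 when tanycytes and VLMCs were left out of the astrocytes. The microglial Mirg values rest on few molecules, 47 UMIs over the 4 libraries.

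Dlk1, a transmembrane protein related to the Notch ligands, was at 80.2, 136, 74.5 and 129 CPM in Neurons_1, so both libraries of repeat 2 lay above both of repeat 1. Astrocytes gave 51.0, 90.5, 45.7 and 49.8 CPM, oligodendrocytes 50.2, 51.2, 50.3 and 33.7, OPCs 38.4, 29.5, 35.9 and 30.4, and microglia and macrophages 51.7, 58.3, 62.6 and 51.9. The neuronal level was 1.82 ± 0.509 times that of astrocytes. Dlk1 therefore did not share the steep neuronal excess of its 3 non-coding neighbours at the level of main types, and its pattern appeared within the neurons.

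**Figure D1:**
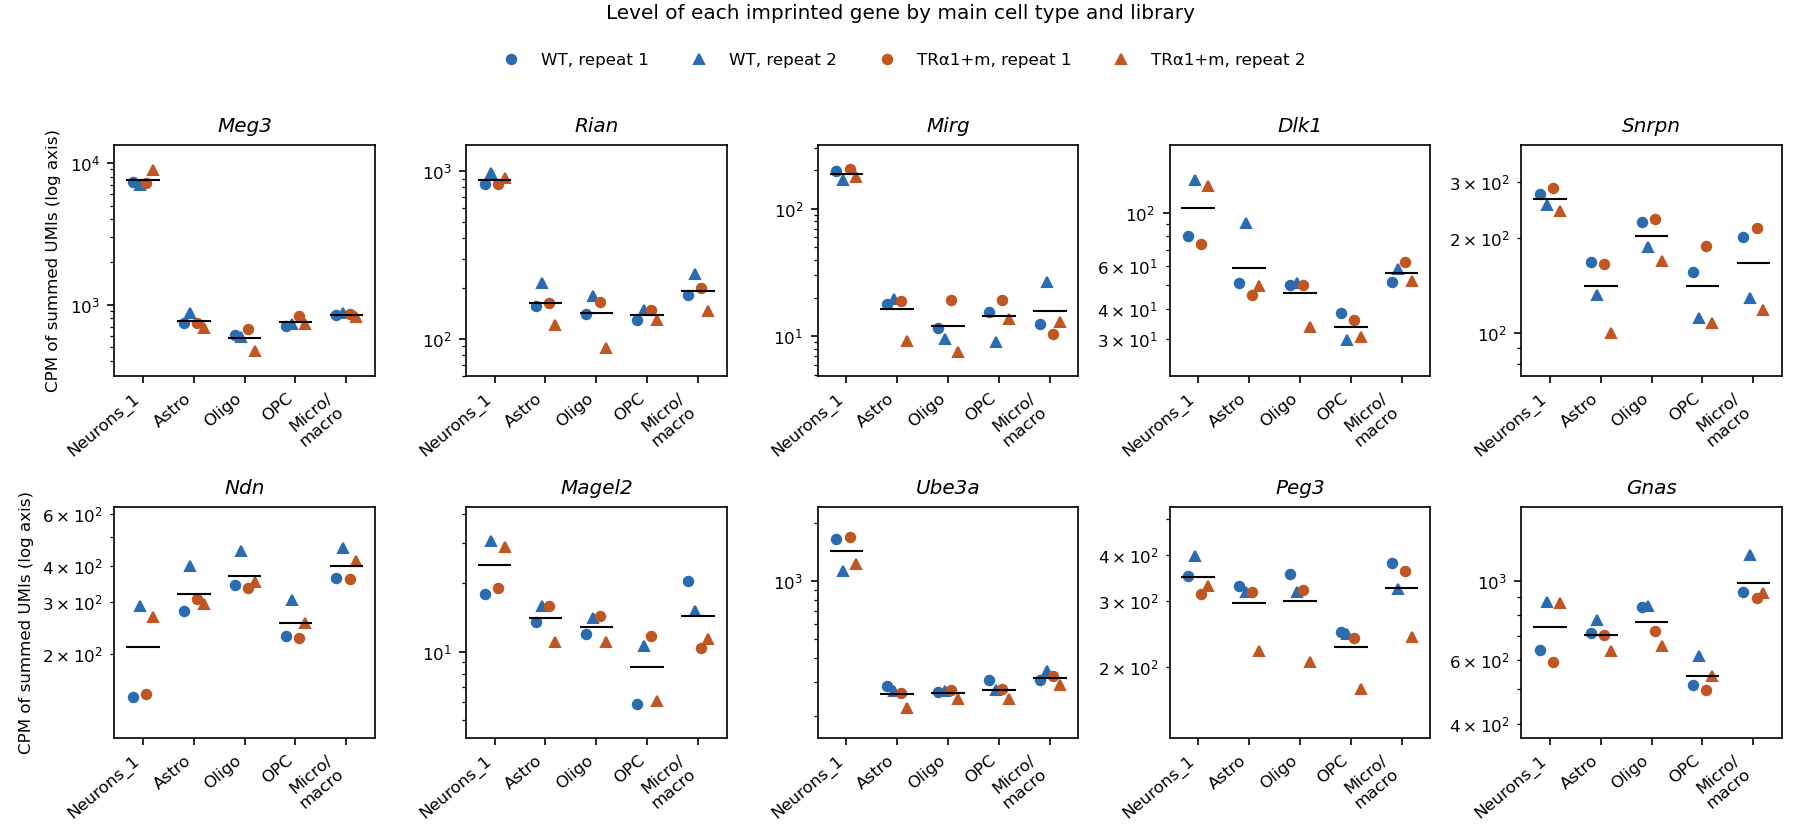
CPM of each gene (log axis) in the 5 main cell types, 1 point per library and a line at the mean of the 4 libraries. Meg3, Rian, Mirg and Ube3a sit higher in Neurons_1 than in every glial type (Meg3 at 6944 to 8911 against at most 879), whereas Ndn sits lower in Neurons_1 (143 to 292) than in microglia and macrophages (361 to 459).

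The members on chromosome 7 include the region of Prader-Willi and Angelman syndromes. Ube3a lies at chr7:59228750-59311536 on the + strand, Snrpn at chr7:59982495-60140219 on the - strand, Ndn at chr7:62346569-62350262 and Magel2 at chr7:62377010-62381640, both on the + strand with a single exon. Snrpn starts 911 kb from Ube3a, Ndn 2206 kb from Snrpn and Magel2 30.4 kb from Ndn. Ube3a is overlapped on the other strand by Snhg14, Snrpn on its own strand by Snurf and Gm38393, and Ndn and Magel2 on the other strand by Gm32061. Whether the authors' counting used strand is not given in the sources used here, so reads of such overlaps could be split between the genes or left out.

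Ube3a, an E3 ubiquitin ligase that mature neurons read from the maternal copy, was at 1662, 1133, 1692 and 1225 CPM in Neurons_1. It was at 283.5, 267, 261 and 220.2 CPM in astrocytes and at 265, 270.1, 270.5 and 244 CPM in oligodendrocytes. OPCs gave 305, 270.1, 275 and 243 CPM, and microglia and macrophages 307, 343, 321 and 288.5 CPM. All neuronal libraries lay above all glial ones, with a ratio to astrocytes of 5.54 ± 0.947, and the neuronal values split by repeat, with repeat 1 higher.

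Snrpn, which encodes a spliceosomal Sm protein of the brain, was at 275, 254, 287.5 and 243 CPM in Neurons_1. Astrocytes gave 167, 132, 165 and 100.5 CPM, oligodendrocytes 225, 188, 229 and 169, OPCs 157, 112, 188 and 108, and microglia and macrophages 202, 129, 215 and 118. The ratio to astrocytes was 1.93 ± 0.344, and every neuronal library was above every glial library.

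Ndn encodes necdin, a MAGE family protein known from postmitotic neurons. Its CPM was 143, 292, 146 and 268 in Neurons_1, below the 281, 398.5, 309 and 296.5 of astrocytes, library by library. Oligodendrocytes gave 344.5, 447, 335 and 352 CPM, OPCs 230.5, 306.5, 227 and 256, and microglia and macrophages 363, 459, 361 and 413. The ratio of Neurons_1 to astrocytes was 0.655 ± 0.202, and Neurons_1 held 72.8% of Ndn UMIs, less than its 80.2% of all UMIs. Magel2, a MAGE family protein of endosomal protein sorting, was the member with the fewest UMIs, 4131 in Neurons_1. It was at 17.9, 30.6, 19.1 and 28.9 CPM in Neurons_1, 13.5, 15.9, 15.9 and 11.03 in astrocytes, 11.96, 14.004, 14.4 and 11.1 in oligodendrocytes, 5.91, 10.6, 11.8 and 6.09 in OPCs, and 20.4, 15.2, 10.4 and 11.4 in microglia and macrophages. The neuronal and microglial ranges overlapped, and the ratio to astrocytes was 1.77 ± 0.650.

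Peg3, a zinc finger protein read from the paternal copy at chr7:6703892-6730431 on the - strand, was nearly level across cell types. Its CPM was 350.1, 397, 314 and 329 in Neurons_1, 329, 317, 317 and 221 in astrocytes, and 355, 318, 322 and 205.5 in oligodendrocytes. OPCs gave 248, 244, 238 and 174 CPM and microglia and macrophages 381, 323, 363 and 239.9. In each of the 4 glial types the TRα1+m library of repeat 2 was the lowest. The ratio of Neurons_1 to astrocytes was 1.20 ± 0.222. Gnas, at chr2:174284320-174346744 on the + strand, encodes the stimulatory G protein α subunit and several imprinted alternative transcripts, which these counts do not separate. It was at 639.5, 871, 592 and 867 CPM in Neurons_1, 713, 777, 704 and 637 in astrocytes, 846, 849.8, 722 and 658 in oligodendrocytes, 513.5, 618, 495 and 544 in OPCs, and 932, 1182, 896 and 924 in microglia and macrophages. The microglial values were the highest of the 5 types in every library, and the ratio of Neurons_1 to astrocytes was 1.06 ± 0.238, which includes 1.

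Glial nuclei of these libraries also held UMIs of neuronal genes, so the glial values were set beside those of 6 such genes. Free RNA in droplets is a known source of such UMIs, and its share was not measured here. The summed CPM of Syt1, Snap25, Rbfox3, Celf4, Slc12a5 and Stmn2 was 4151 to 4271 in Neurons_1, 656 to 1037 in astrocytes, 742 to 1294 in oligodendrocytes, 854 to 1066 in OPCs and 947 to 1423 in microglia and macrophages. In each glial type it was lowest in the TRα1+m library of repeat 2, the library that was also lowest for Peg3, and no gene of the list was at 0. As a percentage of the level in Neurons_1, the microglial level was 12.8% for Syt1, 20.2% for Rbfox3, 29.2% for Celf4, 57.8% for Snap25, 60.9% for Slc12a5 and 100.03% for Stmn2. Neuronal genes thus spanned a wide range, and a glial level alone does not tell expression from free RNA.

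By mean, Meg3 at 11.3% in microglia and macrophages and Mirg at 8.68% lay below all 6 neuronal genes. Rian at 21.7% and Ube3a at 22.8% lay within their range. In both libraries of repeat 2 Meg3 was slightly above Syt1 (9.24% against 8.92% in TRα1+m). In WT repeat 2 Mirg (15.96%) was above Syt1 (12.5%) and Rbfox3 (14.4%). No microglial expression is read from these values. Dlk1 at 57.9%, Snrpn at 62.0% and Magel2 at 64.2% lay near Snap25 and Slc12a5, also within the range of the neuronal genes. Peg3 was at 94.6%, by mean under the value of Stmn2, but above it in TRα1+m repeat 1 (115% against 101%). Gnas at 135% and Ndn at 203% were the 2 members above all 6 neuronal genes there. By mean both were above them in the other 3 glial types too, but in OPCs of WT repeat 1 Gnas (80.3%) was under Stmn2 (84.9%). Ndn was at 164% in astrocytes, 189% in oligodendrocytes and 129% in OPCs, and Gnas at 98.3%, 107% and 74.4%. Stmn2, the highest neuronal gene in each, was at 82.7%, 97.0% and 60.6%. Per 100 UMIs of Stmn2, Ndn had 61.2 UMIs in neurons and 116 to 132 in the glial types of WT repeat 1, and 144 against 212 to 291 in WT repeat 2. The TRα1+m libraries gave 64.6 in neurons against 142 to 157 in repeat 1, and 141 against 256 to 350 in repeat 2.

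**Figure D2:**
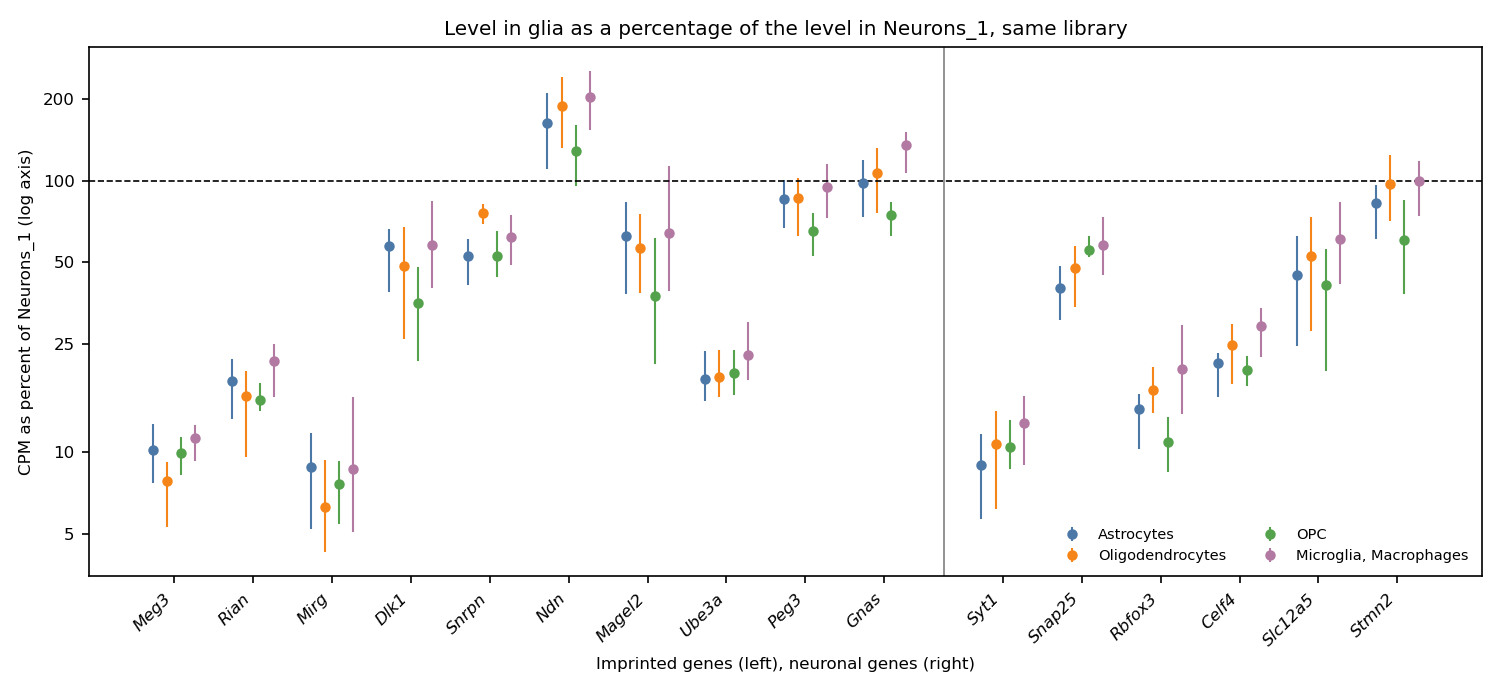
CPM in 4 glial types as a percentage of the CPM in Neurons_1, for the 10 imprinted genes (left) and 6 neuronal genes (right), with points at the mean of the 4 libraries and lines from the lowest to the highest library. In microglia and macrophages the neuronal genes run from 12.8% (Syt1) to 100.03% (Stmn2), and Ndn at 203% and Gnas at 135% lie above them.

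The share of nuclei with at least 1 UMI was compared after each nucleus had been thinned to 900 UMIs, since median depth was 3797 to 5227 UMIs in Neurons_1 and 1367 to 1618 in microglia and macrophages. Meg3 was then found in 98.1% of Neurons_1 nuclei and in 47.8% of microglia and macrophages, against 99.5% and 64.4% without thinning. The corresponding thinned shares were 67.1% and 23.7% for Ube3a, 52.3% and 14.7% for Rian, and 14.98% and 1.66% for Mirg. Snrpn gave 20.5% and 14.5%, Peg3 26.7% and 25.8%, Dlk1 8.88% and 5.26%, and Magel2 2.41% and 1.49%. Ndn and Gnas ran the other way, at 19.2% of Neurons_1 and 32.99% of microglia and macrophages for Ndn, and at 49.1% and 59.3% for Gnas. Microglia and macrophages should lack synaptic genes, yet at the same depth the share of them with a UMI was 31.0% for Snap25, 21.9% for Syt1, 18.98% for Stmn2, 16.8% for Celf4, 10.9% for Slc12a5 and 3.49% for Rbfox3. By mean, the microglial shares of Mirg and Magel2 were below all 6 of these, and those of Dlk1, Rian, Snrpn, Ube3a and Peg3 lay within their range. The means of Meg3, Ndn and Gnas were above all 6, but the libraries of Ndn (29.8% to 39.5%) overlapped those of Snap25 (26.2% to 41.0%). Such shares also follow the level of a gene in neurons, where Meg3 was found in 98.1% of nuclei and Rbfox3 in 14.8%. Their order across genes is therefore no measure of glial expression.

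Among neurons the genes separated further. The sub-clusters of the authors' annotation with at least 10 nuclei in every library were 12 neuronal ones, and with astrocytes, tanycytes, oligodendrocytes, OPCs and microglia and macrophages as well as the small cluster labelled non-neuronal cells they made 18 cell types. Peptide levels are given here for some of the labels, and not for MCH. The sub-cluster labelled Orexin+ had little orexin mRNA, with Hcrt at 101, 54.003, 88.4 and 34.7 CPM against 443, 1506, 440.0 and 919 in Glutamatergic Neurons_2, so it is named here by its label only. Avp was at a mean of 3042 CPM in the sub-cluster AVasopressin and at 21430 in Oxytocin+, AVP. Of the 2085 nuclei labelled MCH, 409 (19.6%) had UMIs of 2 or more of 5 vascular genes.

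Meg3 was highest in the sub-cluster labelled Orexin+, at 8937, 10036, 9220 and 11821 CPM, and lowest among neurons in the NPY/AgRP neurons, at 2669, 2935, 3126 and 4001 CPM. NPY/AgRP neurons release appetite-raising peptides in the arcuate nucleus, and they were the lowest of the 12 neuronal sub-clusters in every library. Orexin+ was the highest in 3 of 4 libraries, and in WT repeat 1 it was Glutamatergic Neurons_3, at 9014 CPM. Outside the neurons, tanycytes, the radial glia-like cells that line the third ventricle, had more Meg3 than other glia, at 1726, 2403, 1267 and 2256 CPM. Rian and Mirg had their highest and lowest neuronal means in the same sub-clusters as Meg3, though MCH was the lowest for Rian in WT repeat 2 and for Mirg in TRα1+m repeat 2. Rian was at 1410, 1958, 1339 and 1642 CPM in Orexin+ and at a mean of 552 ± 63.2 CPM (SD, n = 4) in NPY/AgRP neurons. Mirg was at 356, 429, 326 and 377 CPM in Orexin+, above every library of the next sub-cluster, Oxytocin+, AVP (234 ± 28.1), and at 94.1 ± 5.48 CPM in NPY/AgRP neurons. Its level in tanycytes, 49.9 ± 14.4 CPM, stood above the mean of 9.07 CPM in astrocytes without tanycytes.

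The 3 non-coding RNAs did not keep a fixed ratio between sub-clusters. Rian had 11.8 ± 1.63 UMIs per 100 of Meg3 over all Neurons_1, 17.99 in AVasopressin, 17.7 in NPY/AgRP and 17.5 in Oxytocin+, AVP neurons, and 9.74 in Somatostatin+ neurons. Mirg had 2.48 ± 0.378 UMIs per 100 of Meg3 over all Neurons_1, with 3.74 in Orexin+, 3.58 in Oxytocin+, AVP and 1.64 in Somatostatin+ neurons.

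Dlk1 varied most among neurons, with a 32.3-fold ratio between its highest and lowest sub-cluster, or 25.6 to 45.6 with 1 library left out. It was at 491, 642, 410.2 and 669 CPM in AVasopressin, at 229, 326, 279.5 and 430.4 in Somatostatin+ and at 193, 319, 229.5 and 298 in NPY/AgRP neurons. The lowest values were 18.9 ± 7.43 CPM in CART Neurons_1 and 17.1 ± 12.5 CPM in Orexin+, which rests on 5, 5, 4 and 15 UMIs, the sub-cluster in which Meg3, Rian and Mirg were highest. Per 100 UMIs of Meg3, Dlk1 had 8.22 UMIs in NPY/AgRP and 7.95 in AVasopressin neurons, but 0.165 in Orexin+. The paternally and the maternally read genes of the cluster therefore had different orders of neuronal sub-clusters.

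Among the members on chromosome 7, Snrpn was highest in Oxytocin+, AVP neurons, at 459.6, 411, 474 and 348 CPM, each above every library of the next, the GABA neurons (284 ± 26.4), and lowest among neurons in AVasopressin (167 ± 17.1). Ube3a had its highest mean in Glutamatergic Neurons_3, at 1805, 1205, 1892 and 1334 CPM, and its lowest neuronal mean in AVasopressin, at 1053, 772, 1048 and 716. In WT repeat 2 Glutamatergic Neurons_2 was higher (1229 CPM) and MCH lower (642 CPM). Magel2 was highest in AVasopressin, at 49.0, 83.0, 51.0 and 93.4 CPM, followed by NPY/AgRP neurons at 49.1 ± 19.9 and POMC/CART neurons at 31.1. Its lowest mean was 11.7 CPM in Glutamatergic Neurons_3. Ndn had its highest neuronal mean in the sub-cluster labelled MCH, with widely spread values of 179, 496, 151 and 316 CPM, and its lowest in Glutamatergic Neurons_3 at 158 ± 52.0. MCH was its highest sub-cluster only in WT repeat 2, and the highest differed in every library.

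Peg3 was the most even, with a ratio of 1.55 between CART Neurons_1, at 449, 514, 374 and 423 CPM, and Somatostatin+ neurons, at 283 ± 49.8. Gnas had its highest mean in AVasopressin, at 1198, 1462, 1118 and 1609 CPM, then in Oxytocin+, AVP (1171 ± 419) and NPY/AgRP neurons (1002 ± 207.5), and its lowest in Orexin+, at 307, 415, 263 and 608 CPM. In TRα1+m repeat 2 Oxytocin+, AVP was higher than AVasopressin (1748 CPM) and CART Neurons_1 lower than Orexin+ (544 CPM). The sub-cluster AVasopressin thus had the highest mean of Dlk1, Magel2 and Gnas and the lowest neuronal mean of Snrpn and Ube3a.

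Few neighbours in these orders were apart beyond their spread. Of the 17 neighbouring pairs among the 18 cell types, the libraries did not overlap in 4 for Meg3, 3 for Rian, 3 for Mirg, 1 each for Dlk1, Snrpn and Ube3a, and 0 for Ndn, Magel2, Peg3 and Gnas. Of the 12 neuronal sub-clusters, all libraries lay above every non-neuronal library in 12 for Meg3, Mirg and Ube3a, 11 for Rian, 6 for Snrpn, 4 for Magel2 and 1 for Dlk1. Leaving out nuclei with 2 or more vascular genes moved 2 of the 120 neuronal levels beyond their SD, both in the MCH neurons, Rian from 589 to 679.7 CPM and Snrpn from 225 to 259 CPM.

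**Figure D3:**
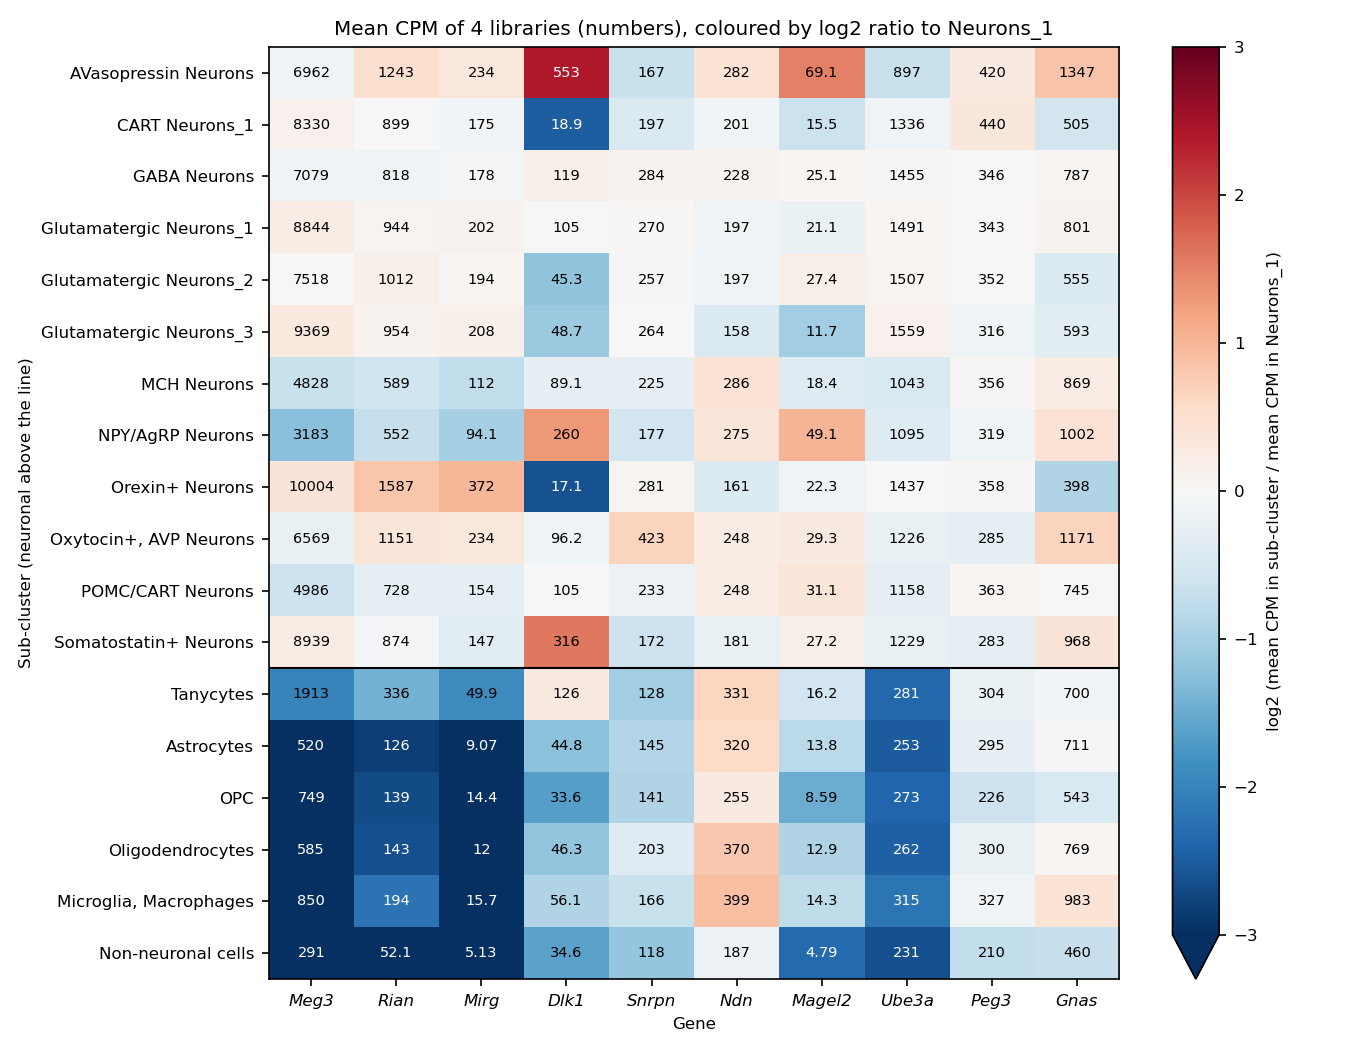
Mean CPM over the 4 libraries of each gene in 18 cell types, printed in each cell and coloured by the log2 ratio to its level in Neurons_1, with the 12 neuronal sub-clusters above the line. Orexin+ holds the highest Meg3 (10004), Rian (1587) and Mirg (372) and a low Dlk1 (17.1), and AVasopressin holds the highest Dlk1 (553), Magel2 (69.1) and Gnas (1347).

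Patterns were also compared as Pearson's r of log2(CPM + 1) over the 18 cell types, each the mean of the same 4 libraries, against 14099 genes; the cell types share libraries and were clustered on these counts, so r is a description. For Meg3 the most alike were Mirg (0.987), B830012L14Rik (0.986) and Rian (0.981). For Rian they were Mirg (0.993), B830012L14Rik (0.988) and Meg3, and for Mirg they were Rian, B830012L14Rik (0.992) and Meg3. B830012L14Rik is a non-coding gene at chr12:109695586-109702587 on the + strand, between Rian and Mirg, so the genes most alike to these members were those of their own cluster. For Ube3a they were Snhg14 (0.992), the RNA that overlaps its end on the other strand, Gm31282 (0.984) and Clvs1 (0.982). Dlk1 was most like Gnas (0.845), Gm15261 (0.823) and Gm45194 (0.822), and Gnas most like Dlk1, Zfp943 (0.816) and Pkib (0.805).

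The other members had no imprinted gene of these lists among their nearest. Snrpn was most like Gm20700 (0.876), Zfp804b (0.874) and Cdh9 (0.867). For Ndn the nearest were Lsm4 (0.962), Ndufb1-ps (0.956) and Zcrb1 (0.956). Magel2 was most like Rims3 (0.925), Stx19 (0.904) and 1700028K03Rik (0.902), and Peg3 most like Ttn (0.897), Coq5 (0.876) and Cda (0.874). Over the 12 neuronal sub-clusters alone, where the split between neurons and glia plays no part, r was 0.970 for Rian with Mirg and 0.911 for Dlk1 with Gnas. There it was 0.755 for Meg3 with either Rian or Mirg, 0.689 for Dlk1 with Magel2, and -0.429 for Meg3 with Dlk1.

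The study asked how the weakened receptor alters hypothalamic cells, and for the imprinted genes no difference between TRα1+m and WT passed the test. With edgeR's quasi-likelihood test and Benjamini-Hochberg adjustment over all genes of a cell type, 0 of 49 tests of the members in the 5 main types were called at an adjusted p of 0.05, and 1, in Neurons_1, had an unadjusted p under 0.05. DESeq2 called 0 as well, with 0 at an unadjusted p under 0.05. Over all genes tested the called share was 0% in Neurons_1, astrocytes, OPCs and microglia and macrophages and 0.103% in oligodendrocytes. Calls were thus rare for any gene in this test, which had no term for the experimental repeat. With the repeat as a block the called share was 4.35% in oligodendrocytes and 0.335% in microglia and macrophages. The log2 difference was below 0 for 10 of 10 members in astrocytes (median -0.18, all genes 0.011). It was below 0 for 8 of 10 in Neurons_1 (median -0.099, all genes 0.0092), 6 of 10 in oligodendrocytes and in OPCs, and 7 of 9 in microglia and macrophages. The uniform direction in astrocytes was not seen in both repeats. In repeat 1 Rian, Mirg, Ndn and Magel2 were higher in TRα1+m astrocytes, and the other members were lower. In repeat 2 every member was lower. For Rian, TRα1+m over WT was 1.04 in repeat 1 and 0.564 in repeat 2, and for Mirg it was 1.06 and 0.465. The members as a set were not tested against all genes. Mirg in microglia and macrophages did not pass the filter on low counts.

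In Neurons_1 the differences, as log2 of TRα1+m over WT, were small for the maternally read RNAs. Meg3 differed by 0.11 (SE 0.105, 95% interval -0.16 to 0.38), Rian by -0.12 (SE 0.101, -0.38 to 0.14) and Mirg by 0.0075 (SE 0.153, -0.39 to 0.40). Ube3a differed by -0.0022 (SE 0.257, -0.67 to 0.66). For Snrpn the value was -0.06 (SE 0.137, -0.41 to 0.29). The intervals of Ndn (-0.14, SE 0.421, -1.22 to 0.95), Dlk1 (-0.16, SE 0.349, -1.06 to 0.74), Magel2 (-0.08, SE 0.329, -0.93 to 0.77) and Gnas (-0.12, SE 0.223, -0.69 to 0.46) were wider, and these genes also differed between the repeats of both genotypes. The adjusted p was 1 for every member in edgeR's test, and with 2 libraries per genotype true differences anywhere within these intervals remain possible. The intervals are not limits of detection.

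Peg3 had the one unadjusted p under 0.05. Both TRα1+m libraries, at 314 and 329 CPM, lay under both WT libraries, at 350.1 and 397, and such a split without overlap occurred in 23% of the 19926 genes tested in Neurons_1. The log2 difference was -0.28 (SE 0.0990, 95% interval -0.54 to -0.02), with an unadjusted p of 0.0374 and an adjusted p of 1 in edgeR's quasi-likelihood test. An unadjusted p under 0.05 was found for 0.969% of genes in Neurons_1. With the experimental repeat as a block the difference was again -0.28 (SE 0.0562), with an adjusted p of 0.234 in edgeR's test. Within repeats, TRα1+m over WT was 0.898 in repeat 1 and 0.828 in repeat 2. The same ratios were 0.963 and 0.698 in astrocytes, 0.908 and 0.647 in oligodendrocytes, 0.960 and 0.713 in OPCs and 0.953 and 0.743 in microglia and macrophages. In glia the difference was thus mostly from repeat 2, though oligodendrocytes were also at 0.908 in repeat 1. The TRα1+m library of repeat 2 also had the lowest summed neuronal genes in each glial type. The part of those genes in the result was not tested.

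Only Peg3 and Gnas among the members were lower in TRα1+m in both repeats in all 5 main types, as were 1.58% of 13159 genes, and these counts were chosen after the values had been seen. For Gnas the ratios within repeats ran from 0.854 to 0.988 in repeat 1 and from 0.774 to 0.996 in repeat 2, and no test of Gnas passed. The interaction of genotype and cell type, which tests whether the genotype difference in Neurons_1 differs from that in a glial type, was called for 0 of 40 tests of the members by edgeR and for 0 by DESeq2. Of these, 1 had an unadjusted p under 0.05 in edgeR, Ube3a against OPCs (0.21, SE 0.103, adjusted p of 1). Over all genes the called share of the interaction was 0% against astrocytes, 0.182% against oligodendrocytes, 0.094% against OPCs and 0.00519% against microglia and macrophages.

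In 14 sub-clusters, the 12 neuronal ones with astrocytes and tanycytes, 0 of 139 tests of the members were called by edgeR and 0 by DESeq2, with 3 and 0 at an unadjusted p under 0.05. Dlk1 in Orexin+ did not pass the filter. The called share over all genes was 0% in 11 sub-clusters, 0.00865% in CART Neurons_1, 0.0119% in NPY/AgRP and 0.043% in Orexin+. Peg3 in Glutamatergic Neurons_1 was at 363.5, 393, 300.8 and 312.5 CPM (log2 difference -0.36, SE 0.104, unadjusted p 0.0173 in edgeR), and in CART Neurons_1 at the values given above (-0.32, SE 0.135, unadjusted p 0.0469 in edgeR). Meg3 in NPY/AgRP neurons, also given above, differed by 0.32 (SE 0.141, unadjusted p 0.0449 in edgeR), with both TRα1+m libraries above both WT libraries. Of all genes, 0.892% had such a p in Glutamatergic Neurons_1, 2.02% in CART Neurons_1 and 3.44% in NPY/AgRP neurons. The mean of Peg3 was lower in TRα1+m in 13 of 14 sub-clusters, all but AVasopressin at 0.08, and 2.69% of 15039 genes had at least as many; this count, too, was chosen after its values had been seen, and the sub-clusters come from the same 4 libraries.

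The libraries are paired by experimental repeat, for which the tests above had no term unless a block is named. With the repeat as a block 2 of the 139 tests in sub-clusters passed in edgeR, with 19 at an unadjusted p under 0.05. In the main types 0 of 49 passed, with 9 at such a p. The lowest adjusted p of a member there was 0.0508 in edgeR's test, in astrocytes. The share of all genes with such an unadjusted p under the block is not given here. Peg3 was lower in TRα1+m GABA neurons, at 348, 392, 318.5 and 324 CPM, by a log2 difference of -0.26 (SE 0.0624), with an adjusted p of 0.0288 in edgeR's test against an unadjusted p of 0.0519 without the block. The called share with the block was 0.684% of all genes in GABA neurons. Dlk1 was lower in TRα1+m tanycytes, at 65.5, 260, 50.1 and 130.2 CPM, by -0.75 (SE 0.186, adjusted p of 0.0262 in edgeR's test with the block), where the called share was 0.481%. Without the block the tanycyte difference was -0.86 (SE 0.754, unadjusted p of 0.305). The block leaves 1 residual degree of freedom among these libraries.

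**Figure D4:**
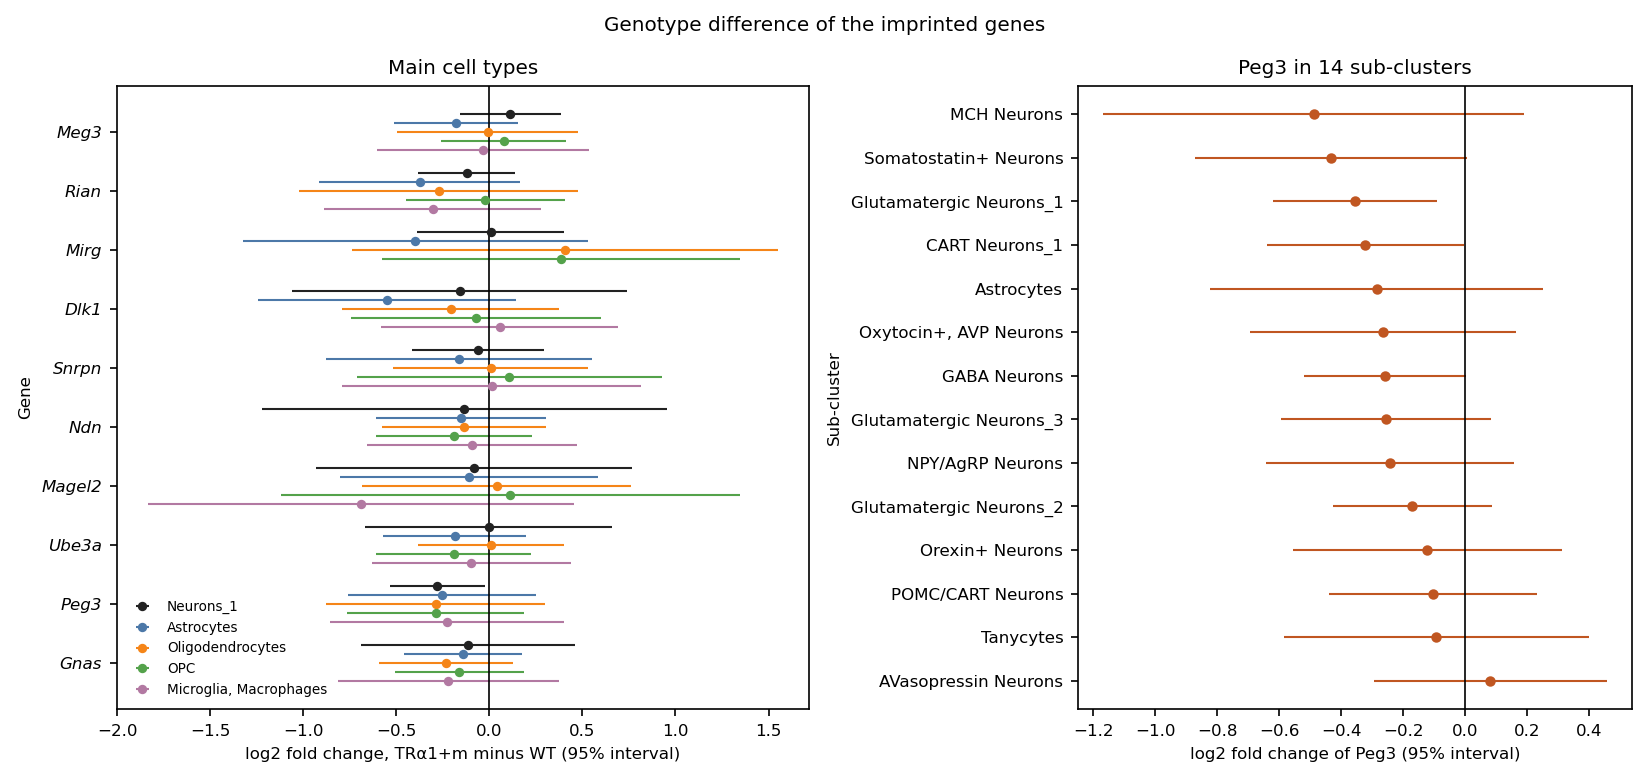
Log2 of TRα1+m over WT with 95% intervals from edgeR, for the 10 genes in the 5 main cell types and for Peg3 in 14 sub-clusters. In Neurons_1 the interval of Peg3 (-0.54 to -0.02) is the one that leaves out 0, and Peg3 lies below 0 in 13 of 14 sub-clusters.

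Most members differed more between the experimental repeats than between the genotypes. Repeat 2 against repeat 1, with genotype as a term in edgeR's test, was called for 7 of the 10 members in Neurons_1, where 25.2% of all genes were called. Ndn was higher in repeat 2 by 0.91 on the log2 scale (SE 0.0644, adjusted p 5.52e-05), at 292 and 268 CPM against 143 and 146. Dlk1 was higher by 0.74 (SE 0.0671), Magel2 by 0.65 (SE 0.101) and Gnas by 0.46 (SE 0.0490). Ube3a was lower in repeat 2 by a log2 difference of -0.55 (SE 0.0440, adjusted p 0.000102 in edgeR's test), at 1133 and 1225 CPM against 1662 and 1692. Mirg differed by -0.27 (SE 0.0591, adjusted p of 0.0131 in edgeR's test) and Snrpn by -0.22 (SE 0.0596, adjusted p of 0.0293 in edgeR's test). For Meg3 (0.07, SE 0.105), Rian (0.14, SE 0.0478) and Peg3 (0.09, SE 0.0561) the test did not pass. The rise of Ndn was at or above that of 96.6% of the 19926 genes, that of Dlk1 at or above 94.4% and that of Magel2 at or above 92.2%.

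The groups of both repeats did not overlap for 63.1% of genes in Neurons_1, so a split by repeat was common among genes. The sub-clusters make up somewhat different shares of the neurons in each repeat, so the members were also compared within them. Both libraries of repeat 2 were above both of repeat 1 in 12 of 12 neuronal sub-clusters for Ndn and Gnas. This count was reached by 1.36% of 15039 genes. It was 11 for Magel2 and for Rian, whose test over all Neurons_1 did not pass, 8 for Dlk1, 6 for Meg3 and 2 for Peg3. Ube3a was below in 12 of 12, as were 1.06% of genes, Mirg in 9 (above in 2) and Snrpn in 6. No share over all genes was taken for counts under 12. Both shares were set at the members' own counts, over genes not matched for level. The sub-clusters come from the same 4 libraries. The ratio of repeat 2 to repeat 1 ran from 1.65 to 3.02 for Ndn (median 1.96), from 1.28 to 1.80 for Gnas (median 1.45) and from 0.581 to 0.757 for Ube3a (median 0.713). Thinned to 900 UMIs a nucleus, 14.2% of Neurons_1 nuclei in repeat 1 and 24.3% in repeat 2 had a UMI of Ndn, and 72.9% and 61.2% one of Ube3a.

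In glia the calls between repeats were of Snrpn, Dlk1 and Peg3. Astrocytes gave 3 of 10, Snrpn (-0.56, SE 0.122), Dlk1 (0.46, SE 0.141) and Peg3 (-0.32, SE 0.118), where 20.6% of all genes were called. These sums include tanycytes, with 61, 264, 50 and 77 UMIs of Dlk1. The astrocyte sub-cluster without them had 184, 218, 194 and 130, so the rise of Dlk1 was seen mainly in tanycytes. For Peg3 the WT astrocyte libraries, given above, differed little between repeats, and the TRα1+m library of repeat 2 was the lowest. Oligodendrocytes gave 0 by edgeR, with 3 at an unadjusted p under 0.05 and a background of 12.4%. OPCs gave 1 (background 11.4%), Snrpn at -0.72 (SE 0.154), and microglia and macrophages gave 1 (background 6.27%), Snrpn at -0.79 (SE 0.215). In all, 12 of 49 tests passed, 5 with repeat 2 higher and 7 with it lower. DESeq2 called 5. The interaction of repeat and cell type, added after the data had been seen, was called by edgeR for 13 of 40 tests of the members, with shares over all genes of 9.38% against astrocytes, 5.15% against oligodendrocytes, 1.84% against OPCs and 2.28% against microglia and macrophages, and DESeq2 called 0. In edgeR's test Ndn passed against all 4 glial types. What differed between the repeats besides the mice and the preparation is not given in the sources used here, and sequencing depth per nucleus was higher in repeat 2 of both genotypes.

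**Figure D5:**
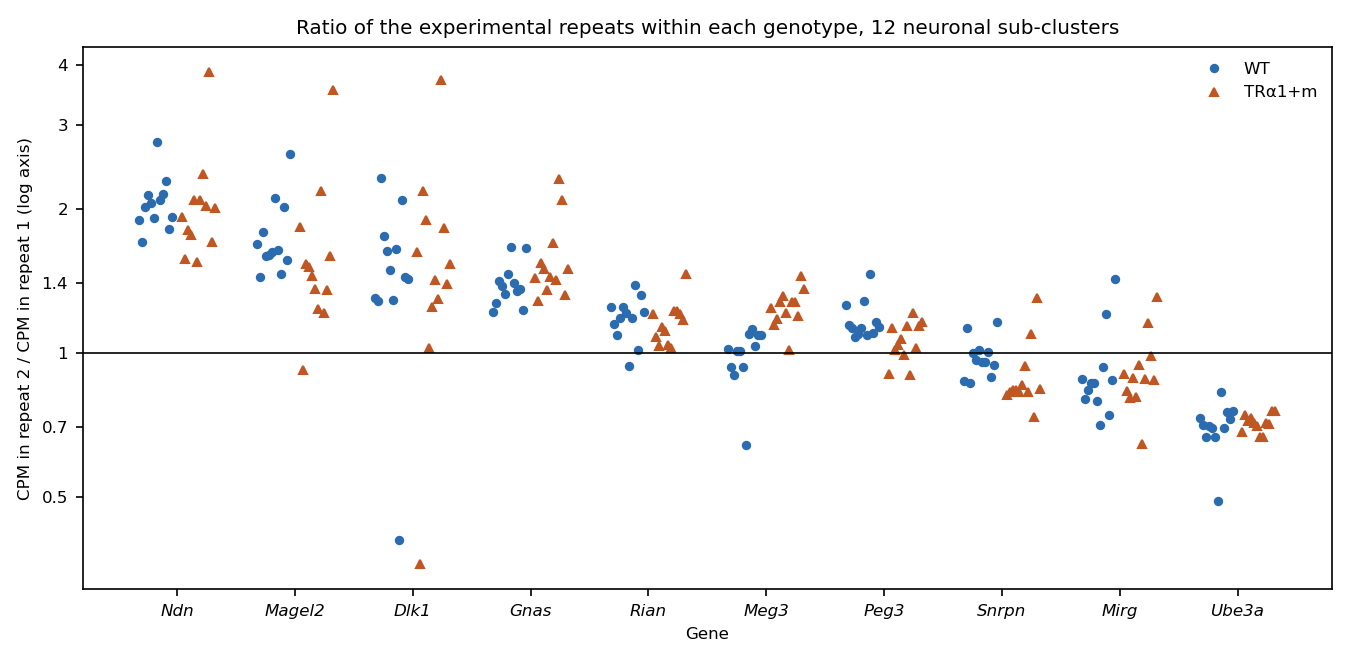
CPM of repeat 2 over repeat 1 within each genotype (log axis) in the 12 neuronal sub-clusters, for each gene. Both libraries of repeat 2 lie above both of repeat 1 in all 12 sub-clusters for Ndn and Gnas and below in all 12 for Ube3a.

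A list of 45 other imprinted genes of the mouse was followed as well, of which 44 were matched in the matrices. The highest in Neurons_1 was Snhg14, the long transcript that runs from the Snrpn region across the end of Ube3a, at 1356, 1404, 1331 and 1320 CPM. It was at a mean of 118 CPM in astrocytes, so like Ube3a it was higher in neurons, and its neuronal values did not split by repeat as those of Ube3a did. Next were Usp29, a neighbour of Peg3 that encodes a deubiquitinase, at 1234 ± 139.5 CPM (SD, n = 4), and Kcnq1ot1, a paternally read non-coding RNA, at 570.5 ± 91.9. Ppp1r9a, which encodes the actin-binding protein neurabin, was at 479.8 ± 31.8 and Rasgrf1, a Ras exchange factor, at 437 ± 45.4.

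Between genotypes edgeR called 0 of 168 tests of these genes in the 5 main types, with 8 at an unadjusted p under 0.05, and DESeq2 called 0, with 2. With the repeat as a block 4 passed. In oligodendrocytes, where 4.35% of all genes were called with the block, these were Mest, a hydrolase of mesoderm, at 10.0, 12.2, 15.5 and 26.5 CPM (0.98, adjusted p of 0.0196 in edgeR's test), and Kcnq1ot1 at 137, 168, 174 and 311 CPM (0.69, adjusted p of 0.00179 in edgeR's test). The third was Inpp5f, a phosphoinositide phosphatase, at 217, 256, 130.1 and 165 CPM (-0.62, adjusted p of 0.00498 in edgeR's test). In microglia and macrophages, where the share was 0.335%, it was Igf2, a growth factor of meninges and vessels, at 15.7, 39.6, 30.0 and 110.2 CPM (1.32, adjusted p of 0.0157 in edgeR's test). Of the 1779 nuclei of that cluster, 66 (3.71%) had UMIs of 2 or more of the 5 vascular genes, and their part in the Igf2 values was not tested. For Mest, Kcnq1ot1 and Igf2 the highest value was that of the TRα1+m library of repeat 2. Of the 38 of these genes tested between repeats in Neurons_1, 14 were called, 8 with repeat 2 higher and 6 with it lower. Over all genes 25.2% were called there.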

How the data were processed

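Hypothalamic nuclei were profiled with 10x Genomics V3.1 chemistry in 4 libraries. The deposited matrices hold raw UMI counts, which the authors obtained with Cell Ranger 5.0.1 on mm10 (GRCm38), introns included. The authors kept nuclei with at least 900 counts, at least 700 features and at most 5% mitochondrial counts, removed doublets by scrublet score, and clustered the merged libraries in Seurat, with batch correction across repeats only for the sub-clusters. Their clusters were used as deposited; strand of counting is not given in the sources used here.

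UMI counts were summed per library and cell type and tested with edgeR 4.0.16 in R 4.3.3 (filterByExpr, TMM, robust quasi-likelihood F-test, two-sided, Benjamini-Hochberg within each cell type, adjusted p of 0.05); DESeq2 1.42.0 was an alternative. Both groups had 2 libraries of 3 pooled mice, so p-values measure the spread between pools, with each gene's spread drawn toward that of all genes. Same-numbered libraries share an experimental repeat, and the repeat difference of WT and TRα1+m correlated across genes (Pearson's r 0.667 for Neurons_1 and 0.668 for astrocytes; the other main types gave 0.393 to 0.541). Gene IDs were matched to GENCODE M21 (32235 of 32285), and miRNA sequences were taken from RefSeq (GRCm38.p6). The genotype test without the block was tried on simulated counts of the main types, with the same spread for every gene and no repeat effect. The block, repeat and interaction tests were not simulated.

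All 10 genes are named in the 5 main types, in sub-clusters at their extremes or where tests passed, with the 3 genes of most similar pattern, and other imprinted genes where called or among the 5 highest in Neurons_1. The members, lists and tests were chosen with earlier results of these data known. Other settings tried were size factors, filters, quasi-likelihood fits, left-out libraries, the repeat block, thinning and astrocytes without tanycytes.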

Additional observations from a re-analysis of the deposited data

Results flagged for a closer look

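The repeat difference of several members was not the same in Neurons_1 as in glia. This was tested as the interaction of repeat and cell type with edgeR's quasi-likelihood test, a comparison added after the data had been seen, and 13 of 40 tests passed. Members called were 5 of 10 against astrocytes, where 9.38% of all genes were called, and 2 of 10 against oligodendrocytes (5.15%). They were 5 of 10 against OPCs (1.84%) and 1 of 10 against microglia and macrophages (2.28%). Values are the log2 difference of repeat 2 over repeat 1 in Neurons_1 minus that in the glial type. Ndn gave 0.66 against astrocytes (SE 0.113), 0.66 against oligodendrocytes (SE 0.143), 0.69 against OPCs (SE 0.107) and 0.68 against microglia and macrophages (SE 0.173). The estimate of its rise in repeat 2 was thus larger in neurons than in all 4 glial types. This design leaves few residual degrees of freedom, so these SEs rest largely on spread pooled over genes, less on a gene's own spread between pools. Dlk1 gave 0.97 against oligodendrocytes and 1.11 against OPCs, and Magel2 0.75 against astrocytes. For Gnas the values were 0.45 against astrocytes and 0.33 against OPCs, and for Peg3 0.35 and 0.38 against the same types. Snrpn gave 0.50 against OPCs. Ube3a alone was negative, at -0.41 against astrocytes.

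DESeq2 called 0 of the 40 at an adjusted p of 0.05, with 9 at an unadjusted p under 0.05, and edgeR's bias-adjusted fit called 3. In glia the TRα1+m library of repeat 2 also had the lowest summed level of 6 neuronal genes; its part in these differences was not tested.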

How the results depend on the processing

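Between genotypes 0 of the members' tests in the main types passed under any of the 9 alternatives run, left-out libraries included, and 0 interactions of genotype and cell type did. In sub-clusters 2 passed with the repeat block (Peg3 in GABA neurons, Dlk1 in tanycytes) and 0 under the other alternatives. For the other imprinted genes 4 passed with the block and 0 to 2 with 1 library left out (Igf2 in microglia and macrophages and Kcnq1ot1 in oligodendrocytes without the TRα1+m library of repeat 1, Dcn in microglia and macrophages without that of repeat 2). In sub-clusters the block also gave calls for Rasgrf1 in astrocytes (1 of 34 tests), Nnat in AVasopressin (1 of 30), Calcr in GABA neurons (1 of 36) and Nap1l5 in MCH neurons (1 of 36). For the genotype interaction against oligodendrocytes it called Inpp5f and Kcnq1ot1 (2 of 38). The called share over all genes with the block was 0.684% in GABA neurons and is not given here for the others. The block changed no other call. In Neurons_1, leaving out 1 library gave log2 genotype differences of -0.021 to 0.23 for Meg3, -0.14 to 0.14 for Mirg, -0.58 to 0.25 for Dlk1, -0.21 to 0.075 for Snrpn, -0.61 to 0.44 for Ndn, -0.41 to 0.33 for Magel2, -0.28 to 0.32 for Ube3a and -0.39 to 0.11 for Gnas, so their direction was not set; Rian (-0.22 to -0.02) and Peg3 (-0.35 to -0.20) stayed below 0. With the block Ube3a was at 0.0051.

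The 12 calls between repeats became 5 with DESeq2, the 13 interactions of repeat and cell type 0 with DESeq2 and 3 with the bias-adjusted fit; the cause was not tested. In DESeq2 the repeat differences of Mirg and Snrpn in Neurons_1 no longer passed, nor did any of the glial calls. Snrpn in Neurons_1 also did not pass without the genotype term. Leaving libraries out of the repeat comparison was not run, since no residual degrees of freedom remain with genotype as a term.

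Without tanycytes and VLMCs the ratio of Neurons_1 to astrocytes was 15.03 for Meg3, 7.31 for Rian, 23.3 for Mirg and 2.40 for Dlk1. With 1 library left out that of Gnas ran from 0.953 to 1.13. Without thinning, the share of Neurons_1 nuclei with a UMI was 99.5% for Meg3, 92.0% for Rian, 52.8% for Mirg, 27.9% for Dlk1, 61.4% for Snrpn, 59.9% for Ndn, 10.8% for Magel2, 95.5% for Ube3a, 74.5% for Peg3 and 91.8% for Gnas.

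With 2 pools per genotype the test rests on 2 residual degrees of freedom, and 1 with the block. Mirg and Magel2 in microglia and macrophages rest on 47 and 41 UMIs.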

Other observations

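The promoters of the members, as RefSeq windows on GRCm38.p6 of 250 bases before to 50 after an annotated start, differed in their number of CG pairs, the site of the methylation that marks imprinted control regions. The median over 32851 windows was 7. Ube3a had 29, Gnas 16 to 40 over its 4 starts, Peg3 13, Ndn 11, Magel2 10, Mirg 10 and Dlk1 9. Meg3 had 13 at one start and 1 at the other, Snrpn 2 to 7 over 4 starts, and Rian 0. Methylation was not measured in these libraries.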
